A study of Mus musculus with 24 samples.

Results

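Dapl1, Ms4a4b, Lef1, Tcf7, Il7r, Satb1, Bcl11b and Klf2 are transcribed in naive T cells, the T cells that have not yet met antigen. These 8 naive T-cell genes were taken by symbol from the expression table of leukemic mouse spleen, which holds 46078 genes. All 8 had a mean level over the 24 mice above the minimum set for testing, an rlog of 3.32, as did 16557 genes in all. Dapl1 passed it only through the mice given vincristine, where it was high, since its mean over CTRL and FMD mice was below that level. The spleens came from 24 male C57BL/6J mice, 20 weeks old, which all carried B-ALL after injection of GFP-expressing, BCR-ABL transformed syngeneic leukemia cells. There were 6 mice in each of 4 groups. CTRL mice were fed ad libitum and given vehicle, FMD mice received cycles of a fasting mimicking diet with vehicle, VC mice were fed ad libitum and given the microtubule drug vincristine, and FMD+VC mice received the diet and the drug. No group without leukemia was analysed here. Each mouse gave 1 library of whole-spleen RNA after removal of ribosomal RNA. The design asks how the diet, the drug and their combination altered the spleen transcriptome.

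The 8 genes cover several steps in the life of a naive T cell. Il7r encodes the alpha chain of the receptor for interleukin 7, which keeps naive T cells alive between encounters with antigen. Tcf7 and Lef1 encode related HMG-box factors that establish and hold T-cell identity and bind the same DNA letters, Bcl11b and Satb1 encode nuclear proteins needed for T-cell commitment and chromatin organisation, and Klf2 encodes a zinc finger factor that keeps T cells quiescent and circulating. Ms4a4b encodes a membrane protein of the MS4A family and Dapl1 a small protein related to Dap, and transcripts of both are abundant in naive T cells of the mouse. Several of the 8 are not restricted to T cells: Klf2 is also made by B cells and endothelium, Il7r by pre-B and innate lymphoid cells, Lef1 by early B cells, and Tcf7 and Bcl11b by some innate lymphoid cells.

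Values are regularized logarithms (rlog), a log2 scale on which the authors had already evened out library size. A difference of 1 is a doubling, and levels of different genes are not compared because the values are not divided by gene length. Differences were tested with limma across all 16557 genes, and an adjusted p (Benjamini-Hochberg) under 0.05 was the threshold. The labels name 24 separate mice, and the p-values measure the spread between them. Each gene has a single spread shared by all groups, although the groups differed in spread. For Dapl1 the SD was 0.17 in CTRL, 0.44 in FMD, 1.70 in VC and 0.77 in FMD+VC mice. Intervals and p-values that involve the widely spread VC mice can therefore be too small. Sequencing depth cannot be read from these values. In whole spleen, fewer cells of a type and less RNA per cell cannot be told apart.

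The spleens differed widely in cell content. The mean rlog of 13 erythroid genes ran from 6.90 to 13.09 over the mice, with CTRL mouse 32 the highest, and that of 10 neutrophil genes from 4.68 to 8.77, with VC mouse 14 the highest. Xist, an RNA of the inactive X chromosome of female cells, was read in every mouse although all are labelled male. Its rlog was 13.88 to 15.68 in CTRL, 12.43 to 15.28 in FMD, 10.48 to 15.20 in VC and 10.45 to 12.99 in FMD+VC mice. Its source was not tested. No mouse could be left out on this ground, since all 24 showed it.

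The naive T-cell genes separated into those that rose with the combined treatment and those that did not. In FMD+VC against CTRL mice, 5 of the 8 rose (Dapl1, Ms4a4b, Lef1, Klf2 and Satb1) and none fell, where 19.5% of all genes tested rose and 20.0% fell. Tcf7, Il7r and Bcl11b did not pass. Without Dapl1, which reached the minimum level only through the groups where it was high, 4 of the other 7 rose. For Dapl1, Ms4a4b, Lef1 and Klf2 every FMD+VC mouse was above every CTRL mouse, which held for 10.8% of all genes. The median log2 fold change of the 8 genes was 1.06, beside -0.03 over all genes. Dapl1 had the highest log2 fold change of the 16557 genes, Ms4a4b ranked 12, Lef1 95 and Klf2 356, while Il7r ranked 10970.

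**Figure D1:**
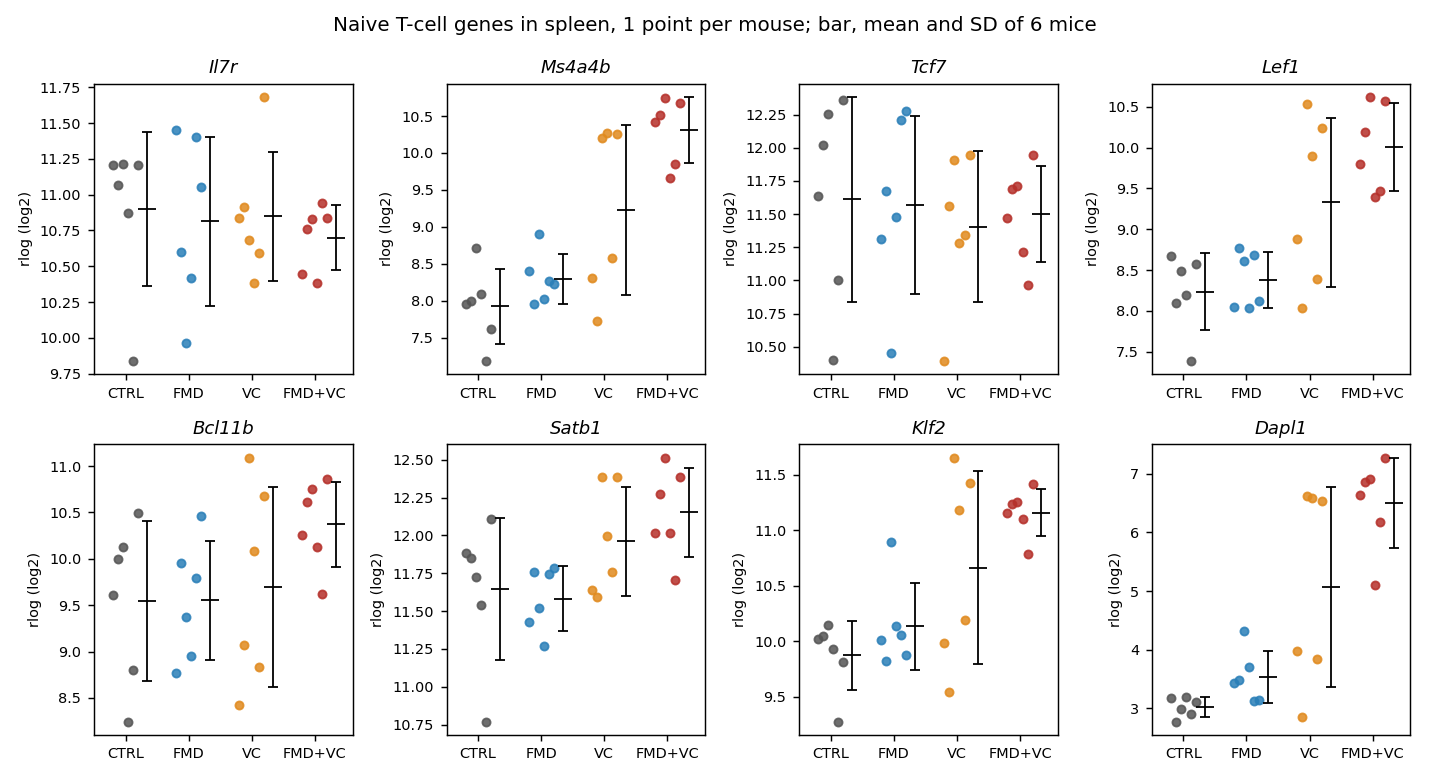
Level (rlog, log2 scale) of the 8 naive T-cell genes in spleen, with 1 point for each mouse, 6 mice in each group, and a bar at the mean with its SD. Dapl1, Ms4a4b, Lef1 and Klf2 were high in all 6 FMD+VC mice and in VC mice 17, 18 and 41, while Tcf7 and Il7r covered about the same range in all 4 groups.

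Il7r, the receptor gene, lies on chromosome 15 (9505788 to 9530176, minus strand, GRCm38, as are all positions here). The lowest, median and highest rlog were 9.84, 11.14 and 11.21 in CTRL mice, 9.96, 10.83 and 11.45 in FMD mice, 10.39, 10.76 and 11.68 in VC mice, and 10.39, 10.79 and 10.94 in FMD+VC mice. The 4 groups overlapped almost completely. The log2 fold change in FMD+VC against CTRL mice was -0.20 (SE 0.25, 95% interval -0.73 to 0.32, limma adjusted p = 0.542, n = 6 per group). Without CTRL mice 25 and 32, the CTRL mice with the highest erythroid level, it was -0.48 (SE 0.25, limma adjusted p = 0.134).

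Ms4a4b lies on chromosome 19 (11443553 to 11467055, plus strand) among other MS4A genes of like sequence, so that reads shared between them could be miscounted. Its rlog had a lowest, median and highest value of 7.19, 7.98 and 8.71 in CTRL, 7.96, 8.25 and 8.90 in FMD, 7.72, 9.39 and 10.27 in VC, and 9.66, 10.47 and 10.75 in FMD+VC mice. The FMD+VC mice lay wholly above CTRL and FMD mice, and VC mice spanned both levels. Ms4a4b was 5.21-fold higher in FMD+VC than in CTRL mice (log2 fold change 2.38, SE 0.37, limma adjusted p = 0.000138, n = 6 per group).

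Tcf7 and Lef1, the related HMG-box genes, behaved differently from each other. Tcf7 lies on chromosome 11 (52252371 to 52283014, minus strand). Its lowest, median and highest rlog were 10.40, 11.83 and 12.36 in CTRL, 10.45, 11.58 and 12.28 in FMD, 10.39, 11.45 and 11.95 in VC, and 10.96, 11.58 and 11.95 in FMD+VC mice. All 4 groups shared the same range. The log2 fold change in FMD+VC against CTRL mice was -0.11 (SE 0.33, 95% interval -0.79 to 0.57, limma adjusted p = 0.805, n = 6 per group). Without CTRL mice 25 and 32 it was -0.57 (SE 0.31, limma adjusted p = 0.155), so the value near 0 depended on these mice.

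Lef1, on chromosome 3 (131110471 to 131224356, plus strand), had a lowest, median and highest rlog of 7.39, 8.35 and 8.67 in CTRL, 8.03, 8.37 and 8.77 in FMD, 8.04, 9.39 and 10.54 in VC, and 9.40, 9.99 and 10.62 in FMD+VC mice. CTRL and FMD mice were alike in range, and every FMD+VC mouse lay above them. Lef1 was 3.41-fold higher in FMD+VC than in CTRL mice (log2 fold change 1.77, SE 0.35, 95% interval 1.04 to 2.49, limma adjusted p = 0.000681, n = 6 per group). Its interval lay wholly above that of Tcf7. In the annotation 2 other genes overlap Tcf7 and 2 overlap Lef1, in each case 1 of them on the opposite strand. Whether reads were counted by strand is not stated. According to the methods, reads that overlap several genes were left out. How many reads of Tcf7 and Lef1 were lost in this way is unknown.

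Bcl11b lies on chromosome 12 (107910403 to 108003602, minus strand). Its rlog varied widely within groups, with lowest, median and highest values of 8.24, 9.80 and 10.49 in CTRL, 8.77, 9.58 and 10.46 in FMD, 8.42, 9.58 and 11.09 in VC, and 9.62, 10.43 and 10.86 in FMD+VC mice. The groups overlapped. The log2 fold change in FMD+VC against CTRL mice was 0.83 (SE 0.43, 95% interval -0.05 to 1.70, limma adjusted p = 0.124, n = 6 per group). Without CTRL mice 25 and 32 it was 0.31 (SE 0.43, limma adjusted p = 0.592).

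Satb1, on chromosome 17 (51736187 to 51833290, minus strand, with 6 other annotated genes that overlap it), had lowest, median and highest values of 10.77, 11.79 and 12.11 in CTRL, 11.27, 11.63 and 11.78 in FMD, 11.60, 11.88 and 12.39 in VC, and 11.71, 12.15 and 12.52 in FMD+VC mice. The FMD+VC mice overlapped with CTRL mice. The increase was 1.42-fold (log2 fold change 0.51, SE 0.19, limma adjusted p = 0.0371, n = 6 per group). CTRL mouse 32 was the lowest of all 24 mice, and without CTRL mice 25 and 32, the CTRL mice with the highest erythroid level, the log2 fold change was 0.26 and no longer passed (limma adjusted p = 0.236).

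Klf2 lies on chromosome 8 (72319033 to 72321656, plus strand). Its lowest, median and highest rlog were 9.27, 9.97 and 10.15 in CTRL, 9.82, 10.03 and 10.90 in FMD, 9.54, 10.68 and 11.66 in VC, and 10.78, 11.20 and 11.42 in FMD+VC mice. All FMD+VC mice were above all CTRL mice, and 1 FMD mouse (mouse 9) reached the FMD+VC range. Klf2 was 2.44-fold higher in FMD+VC than in CTRL mice (log2 fold change 1.29, SE 0.28, limma adjusted p = 0.0012, n = 6 per group).

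Dapl1 lies on chromosome 2 (59484653 to 59505020, plus strand). It was low and narrowly spread in CTRL mice, with a lowest, median and highest rlog of 2.77, 3.05 and 3.19, beside 3.13, 3.45 and 4.32 in FMD, 2.85, 5.26 and 6.62 in VC, and 5.11, 6.75 and 7.28 in FMD+VC mice. The lowest FMD+VC mouse was above the highest CTRL and FMD mice. The log2 fold change in FMD+VC against CTRL mice was 3.47 (SE 0.52, limma adjusted p = 0.00011, n = 6 per group). All 6 CTRL mice were under the minimum level of 3.32, so that this value and its rank rest on a reference near the floor of the scale, where the regularized logarithm pulls values toward the mean of the gene, and no linear fold is given.

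The promoters of Dapl1, Ms4a4b and Klf2 are shown because these genes rose together and each has 1 promoter in RefSeq (GRCm38.p6). Each sequence is the 200 bases before the RefSeq start, read 5′ to 3′ along the gene. Capitals mark CTTTGA or CTTTGT, which TCF and LEF factors bind, CCACCC, which KLF factors bind, and GGAAGT, which ETS factors bind, on either strand. They lie at chr2:59484453-59484652 for Dapl1, chr19:11443358-11443557 for Ms4a4b and chr8:72318862-72319061 for Klf2, all on the plus strand.
Dapl1: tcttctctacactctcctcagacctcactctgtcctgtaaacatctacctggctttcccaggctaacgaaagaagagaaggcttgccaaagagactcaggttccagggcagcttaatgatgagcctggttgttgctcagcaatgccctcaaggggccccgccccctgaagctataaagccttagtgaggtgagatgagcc
Ms4a4b: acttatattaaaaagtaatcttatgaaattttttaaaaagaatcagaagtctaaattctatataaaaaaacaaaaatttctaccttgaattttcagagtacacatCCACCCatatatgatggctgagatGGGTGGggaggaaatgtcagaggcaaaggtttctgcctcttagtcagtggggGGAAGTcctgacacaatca
Klf2: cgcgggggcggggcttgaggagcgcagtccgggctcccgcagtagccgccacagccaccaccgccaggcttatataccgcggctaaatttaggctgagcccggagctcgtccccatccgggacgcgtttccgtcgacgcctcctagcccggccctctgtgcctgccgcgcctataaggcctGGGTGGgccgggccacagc

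The 3 windows held no TCF/LEF letters. The KLF letters occurred at 2 places in Ms4a4b and at 1 in Klf2, the ETS letters at 1 place in Ms4a4b, and none of them in Dapl1. Of 32851 mouse promoter windows of this length, 22.5% held the TCF/LEF letters, 24.1% the KLF letters and 16.7% the ETS letters. Il7r, which did not pass the test, held the ETS letters once, 49 bases before its start. No motif was therefore common to the 3 promoters shown.

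Of the remaining comparisons, FMD+VC against FMD mice gave the most calls, VC against CTRL mice gave fewer, and the others gave none. In FMD+VC against FMD mice, 5 of the 8 genes rose, where 12.6% of all genes rose. They were Dapl1 (log2 fold change 2.96), Ms4a4b (2.01), Lef1 (1.63), Klf2 (1.03) and Satb1 (0.57), the same genes as against CTRL mice, and limma adjusted p-values ran from 0.00206 to 0.0326. Dapl1, Ms4a4b and Lef1 lay wholly above FMD mice, which held for 5.96% of all genes. Both comparisons share the FMD+VC mice. Dapl1 is in these counts although it passed the minimum level only through mice given vincristine. Without it, Ms4a4b, Lef1, Klf2 and Satb1 rose, and Ms4a4b and Lef1 lay wholly above FMD mice.

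**Figure D2:**
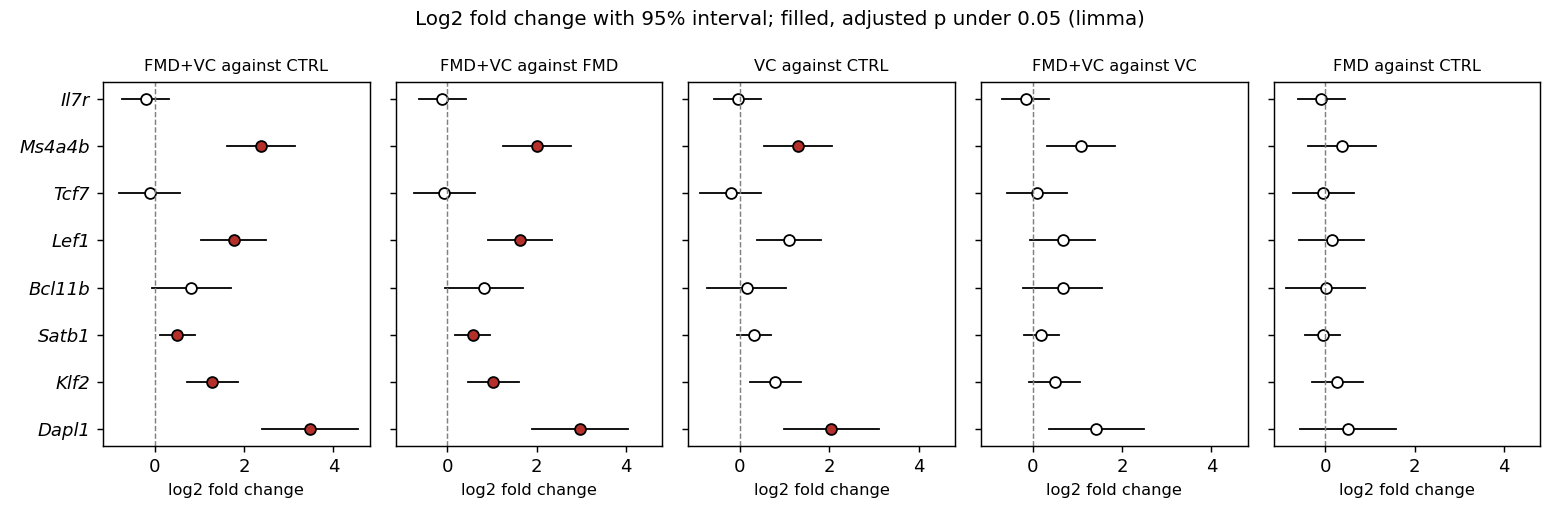
Log2 fold change of the 8 naive T-cell genes in 5 comparisons, with the 95% interval as a line and a filled point where the limma adjusted p was under 0.05. In FMD+VC mice 5 genes passed against CTRL and against FMD mice, in VC against CTRL mice Dapl1 and Ms4a4b passed, and no gene passed in FMD+VC against VC or in FMD against CTRL mice.

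In VC against CTRL mice, 2 of the 8 genes rose, where 3.92% of all genes rose. Dapl1 passed the minimum level only through mice given vincristine, and without it only Ms4a4b rose. Dapl1 had a log2 fold change of 2.05 (SE 0.52, limma adjusted p = 0.0305, n = 6 per group) and Ms4a4b of 1.30 (SE 0.37, limma adjusted p = 0.0424, n = 6 per group). The values for Lef1 (1.09, adjusted p = 0.0572) and Klf2 (0.79, adjusted p = 0.0743) were just short of the threshold. Both calls rested on single mice: without VC mouse 17, 18 or 41, or without CTRL mouse 6, 32 or 33, no member passed. Without CTRL mouse 2, 3 or 25, 1 passed, and without VC mouse 13 or 14, 4 did. Over all genes, leaving out 1 mouse at a time gave 4 to 1662 higher and 1 to 1258 lower genes. Calls of other genes in VC against CTRL mice can therefore rest on single mice as well.

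FMD mice were close to CTRL mice. None of the 8 genes passed, as for 0.0% of all genes, and log2 fold changes ran from -0.09 for Il7r to 0.51 for Dapl1 (95% interval -0.56 to 1.58). None of the 8 had an unadjusted p under 0.05 in this comparison, and 707 of all genes did in limma. In FMD+VC against VC mice none passed either, as for 0.0% of all genes, where 1878 of all genes had an unadjusted p under 0.05. Dapl1 was 1.43 higher on the log2 scale in FMD+VC than in VC mice (95% interval 0.36 to 2.50, adjusted p = 0.424), and Ms4a4b was 1.09 higher (95% interval 0.32 to 1.85, adjusted p = 0.422). These were the only members with an unadjusted p under 0.05 there, so an added increase with the diet was not shown and was not bounded near 0. Each interval rests on the spread shared by all groups. VC mice varied more than FMD+VC mice, with an SD of 1.70 against 0.77 for Dapl1 and 1.15 against 0.45 for Ms4a4b.

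None of the 8 passed in VC against FMD mice, where 1 gene in all (0.00604%) rose, although Dapl1, Ms4a4b and Lef1 had an unadjusted p under 0.05. The interaction of FMD and VC, which asks whether the drug effect differed with the diet, gave no call for the 8 genes or for any gene (0.0%), and 504 genes had an unadjusted p under 0.05. Its estimate for Dapl1 was 0.92 (95% interval -0.60 to 2.43). For Dapl1, Ms4a4b, Lef1 and Klf2 the group means thus rose in the order CTRL, FMD, VC, FMD+VC, and no neighbouring groups in that order passed the test.

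The VC mice did not form 1 level. In VC mice 17, 18 and 41 the rlog of Dapl1 was 6.62, 6.59 and 6.54, and in VC mice 13, 14 and 37 it was 3.98, 2.85 and 3.84. Mice 17, 18 and 41 lay within the FMD+VC range and mice 13, 14 and 37 within that of CTRL and FMD mice. The same mice, 17, 18 and 41, were the VC mice that reached the lowest FMD+VC value of Dapl1 (5.11), Ms4a4b (9.66), Lef1 (9.40), Bcl11b (9.62) and Klf2 (10.78). For Tcf7 that level (10.96) was reached by 5 of the 6 VC mice.

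Several other transcripts moved with this difference among VC mice. In VC mice 17, 18 and 41 the mean rlog of 10 mature B-cell genes was 11.96, 12.21 and 11.98, that of 10 neutrophil genes 5.15, 6.10 and 5.51, and Xist 10.68, 10.48 and 11.11. In VC mice 13, 14 and 37 the B-cell mean was 11.06, 10.27 and 11.28, the neutrophil mean 8.59, 8.77 and 8.43, and Xist 14.98, 15.20 and 14.45. The mean of 8 pre-B-cell genes was 6.01, 5.92 and 6.06 in VC mice 17, 18 and 41, and 7.93, 7.38 and 7.49 in VC mice 13, 14 and 37. Among VC mice, the spleens with high Dapl1, Ms4a4b, Lef1 and Klf2 were thus those with high B-cell and low neutrophil, pre-B-cell and Xist levels. FMD+VC mouse 45 did not follow this: Dapl1 was 6.18 and the B-cell mean 11.85, with a neutrophil mean of 7.41, a pre-B-cell mean of 7.87 and Xist at 12.99. The part of these differences in the members' levels was not tested.

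The CD3 genes, which encode the signalling chains of the T-cell receptor and are made by naive and activated T cells alike, were taken as a reference. Their RNA level is not a count of T cells. Cd3e (log2 fold change 2.27), Cd3d (2.15) and Cd3g (1.93) rose in FMD+VC against CTRL mice, with limma adjusted p-values of 0.000299, 0.000348 and 0.00022. Tcf7 and Il7r did not follow them. The rlog of Tcf7 minus the mean of the 3 CD3 genes had a lowest, median and highest value of 3.36, 4.38 and 5.25 in CTRL, 2.25, 4.17 and 4.61 in FMD, 2.22, 2.75 and 4.60 in VC, and 2.01, 2.06 and 2.28 in FMD+VC mice. No CTRL mouse reached down to the FMD+VC range, in which the SD was 0.11 (n = 6). A gene with no change falls relative to CD3 by as much as CD3 rose, and the median change of all genes was -0.03. The share of all genes lying wholly lower relative to CD3 was not computed, so the separation cannot be called particular to Tcf7.

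The corresponding difference for Il7r was 3.16, 3.63 and 4.10 in CTRL and 0.90, 1.21 and 2.03 in FMD+VC mice, again without overlap. Satb1, although it rose, also lay wholly lower relative to CD3, with a lowest CTRL mouse at 3.67 and a highest FMD+VC mouse at 3.08. From CTRL to FMD+VC mice the mean of this difference moved by -2.23 for Tcf7, -2.32 for Il7r, -1.61 for Satb1, -1.29 for Bcl11b, -0.83 for Klf2, -0.34 for Lef1, 0.27 for Ms4a4b and 1.36 for Dapl1. Relative to CD3, the means of Ms4a4b and Lef1 moved least, and those of Tcf7 and Il7r were lowered most. With the mean of 19 T-lineage genes in place of CD3 the changes were -0.995 for Tcf7, -1.09 for Il7r, -0.38 for Satb1, -0.06 for Bcl11b, 0.41 for Klf2, 0.89 for Lef1, 1.50 for Ms4a4b and 2.59 for Dapl1. The sign for Lef1 and Klf2 thus depended on the reference, and with this one Bcl11b and Satb1 moved least. Tcf7 and Il7r were lowest and Dapl1 highest with both references. These ratios are described without a test, and a gene that did not change would also lie lower relative to CD3.

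**Figure D3:**
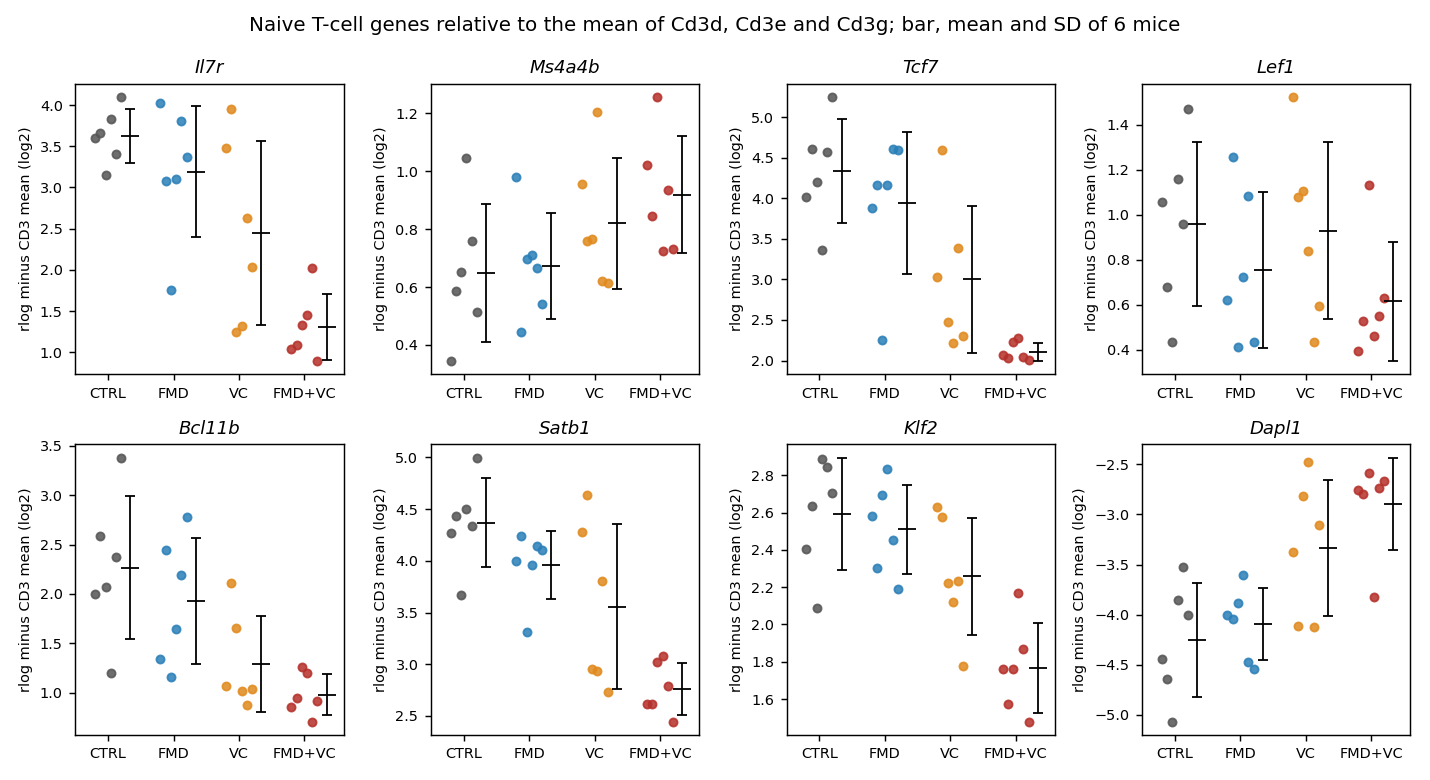
Rlog of each naive T-cell gene minus the mean rlog of Cd3d, Cd3e and Cd3g in the same mouse (log2 scale), with 1 point for each mouse and a bar at the mean with its SD (n = 6 per group). Tcf7, Il7r and Satb1 lay lower in all 6 FMD+VC mice than in any CTRL mouse, and Dapl1 tended upward from a mean of -4.25 in CTRL to -2.90 in FMD+VC mice. A gene with no change also lies lower on this scale in FMD+VC mice, since the CD3 genes rose.

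The 8 genes did not all move together under their common name, and the T-lineage genes were also divided. Of 20 T-lineage genes, 19 were tested (Cd28 was left out because its name stands on more than 1 line). Of these, 8 rose in FMD+VC against CTRL mice with none lower, where 19.5% of all genes rose. Cd2, an adhesion receptor of lymphocytes and not of T cells alone, rose by 2.04 on the log2 scale (limma adjusted p = 0.000125), beside the CD3 genes. Gata3 (-0.06), a T-cell and innate lymphoid factor, Themis (-0.44), needed in thymocyte selection, Thy1 (0.24), a surface protein of T cells and innate lymphoid cells, and Tespa1 (0.00), a component of T-cell receptor signalling, did not pass. The median of the 19 genes was 0.63.

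Genes that share the naive programme mostly rose with Dapl1, Ms4a4b, Lef1 and Klf2. Of 15 other naive T-cell and circulation genes, 12 rose and none fell in FMD+VC against CTRL mice, where 19.5% of all genes rose. Their median log2 fold change was 0.88. S1pr1, the receptor that lets lymphocytes leave lymphoid organs and a target of Klf2, rose by 1.89 (SE 0.31), Bach2, a repressor of effector genes, by 1.55 (SE 0.28), Foxo1, which drives Klf2 and Il7r transcription, by 1.33 (SE 0.24) and Ets1, a lymphocyte transcription factor, by 1.26 (SE 0.23), with limma adjusted p-values from 0.000186 to 0.000403. Ccr7 (1.60), a chemokine receptor gene of naive T cells that is named here after its values were seen, rose as well. Nsg2 (0.40), Igfbp4 (0.22) and Klf3 (0.28) did not pass. Many of these genes are also transcribed in mature B cells. In VC against CTRL mice 3 of the 15 rose, where 3.92% of all genes rose.

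The coreceptor genes Cd8b1 (log2 fold change 2.98), Cd8a (2.29) and Cd4 (1.02) rose in FMD+VC against CTRL mice, with limma adjusted p-values of 0.000193, 0.000215 and 0.0251. In VC against CTRL mice Cd8b1 (1.80) and Cd8a (1.30) rose and Cd4 did not pass, where 3.92% of all genes rose. Whether these calls hold without single mice was not tested. Genes of effector and memory T cells were not lower as a group: of 17 tested, 9 rose and 1 fell, with a median of 0.52. They are not genes of T cells alone, since Eomes also served as a marker of natural killer (NK) cells and Klrg1 of innate lymphoid cells. The cells behind these changes were not identified. Of all genes, 19.5% rose and 20.0% fell. Prf1 (1.65), which encodes perforin, Tbx21 (1.65), the factor T-bet, and Ccl5 (1.40) rose, and Gzma (-2.37), which encodes granzyme A, fell (limma adjusted p-values from 0.000358 to 0.000908). Ifng was under the minimum level and was not tested.

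Interleukin 7 signals through the Il7r chain and the common chain Il2rg to JAK and STAT5 proteins. Of 12 genes of this pathway, 5 rose and 3 fell in FMD+VC against CTRL mice, with a median of 0.21. Of all genes tested, 19.5% rose and 20.0% fell, so the pathway as a set was not shown to fall. The cytokine gene Il7 (1.23) and Jak1 (0.59) rose, with limma adjusted p-values of 0.000202 and 0.000996. Cish (-2.57) and Pim1 (-1.64), which STAT5 is known to induce, fell, with adjusted p-values of 8.25e-05 and 0.000105, and so did Socs1 (-1.07), another induced inhibitor of cytokine signalling (adjusted p = 0.00432). Many cell types transcribe these genes, the leukemia cells included. In VC against CTRL mice Il7 (0.85) rose, and Cish (-1.62) and Pim1 (-1.10) fell. Of all 16557 genes, 649 rose and 419 fell there. Whether these calls hold without single mice was not tested.

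Of 11 genes that encode partners and targets of TCF and LEF factors, 5 rose and none fell, with a median of 0.27, where 19.5% of all genes rose. Axin2, a common target of beta-catenin with these factors, rose by 1.35 (SE 0.30, limma adjusted p = 0.00152), and the corepressor genes Aes, Tle1 and Tle4 rose by 0.42, 0.35 and 0.35. Ctnnb1, which encodes beta-catenin itself, was at -0.01 and did not pass.

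Of 21 genes from the families of the 8 members, 8 rose and 3 fell, with a median of 0.28, where 19.5% of all genes rose and 20.0% fell. In the MS4A family, Ms4a1, which encodes the B-cell protein CD20, rose by 2.40, Ms4a4c by 1.89, Ms4a6b by 1.66 and Ms4a6c by 0.83, while Ms4a4a fell by 0.99. The other genes of the TCF/LEF family, Tcf7l1 (0.13) and Tcf7l2 (-0.38), did not pass, whereas Lef1 rose. Bcl11a, the relative of Bcl11b, rose by 0.39. Il2ra, a cytokine receptor gene, fell by 2.44 (limma adjusted p = 0.00281), and the cells that transcribed it were not identified. Ms4a4a, Bcl11a and Il2ra, and Socs1 of the interleukin 7 list, are named here after their values were seen.

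**Figure D4:**
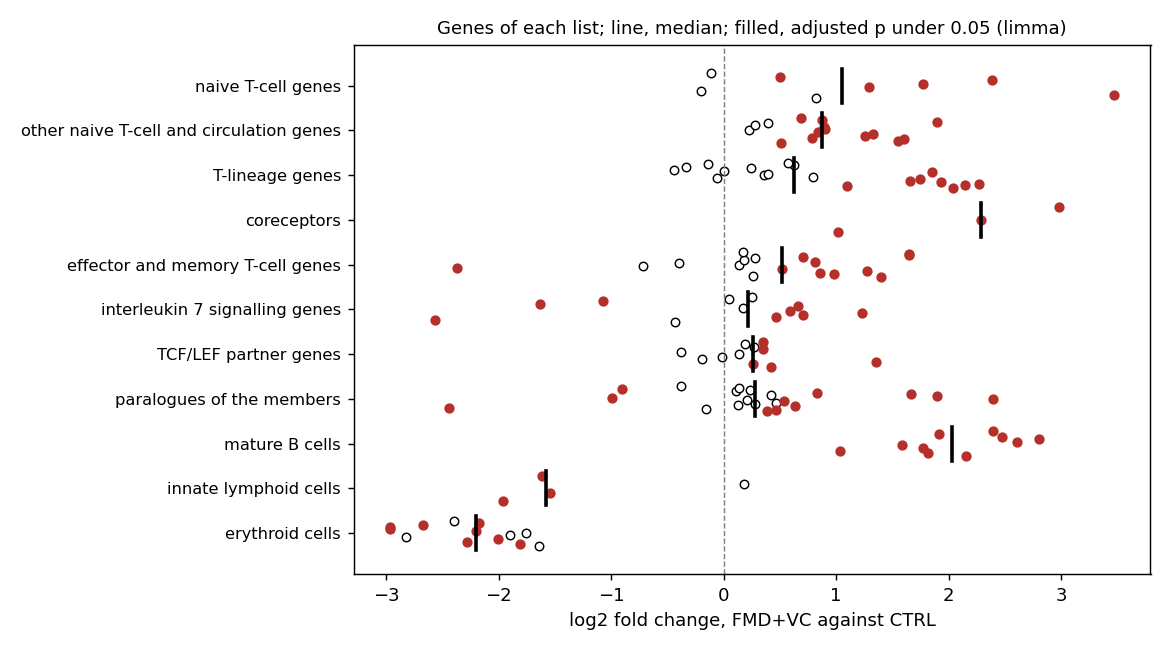
Log2 fold change in FMD+VC against CTRL mice for the genes of 11 lists, with 1 point for each gene, a filled point where the limma adjusted p was under 0.05, and a line at the median. The naive T-cell genes spread from -0.20 to 3.47 around a median of 1.06, between the mature B-cell genes (median 2.03, all 10 higher) and the T-lineage genes (median 0.63).

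Markers of other cell types moved in the same comparison, in which 19.5% of all genes rose and 20.0% fell. All 10 mature B-cell genes rose in FMD+VC against CTRL mice (median 2.03), and the log2 of their summed level was 13.26 to 14.27 in CTRL, 13.99 to 15.11 in FMD, 13.83 to 15.65 in VC and 15.35 to 15.91 in FMD+VC mice. Of 13 erythroid genes 8 fell (median -2.20), and their summed level was 13.38 to 18.19 in CTRL and 12.09 to 15.09 in FMD+VC mice. Of 10 neutrophil genes 6 fell (median -1.59), with a summed level of 10.03 to 12.20 in CTRL and 8.39 to 11.36 in FMD+VC mice, and Ly6g and Cebpe were under the minimum level. Of 8 pre-B-cell genes 3 fell (median -1.05), of 10 macrophage genes none passed, and of 7 dendritic-cell genes 3 rose. Of 5 NK-cell genes 2 rose and 1 fell, and of 4 genes of the spleen stroma 2 rose. The part of these cell types in the members' changes was not tested.

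Innate lymphoid cells also carry Tcf7, Il7r and Gata3. In FMD+VC against CTRL mice 19.5% of all genes rose and 20.0% fell. Of their 4 tested markers 3 fell in FMD+VC against CTRL mice, among them Il17rb (-1.96) and Il1rl1 (-1.54), with limma adjusted p-values of 0.00155 and 0.0153. The log2 of the summed level was 8.19 to 9.66 in CTRL, 8.28 to 9.66 in FMD, 7.42 to 9.08 in VC and 7.31 to 7.89 in FMD+VC mice, and Il22 and Areg were under the minimum level. FMD+VC mice were wholly below CTRL mice. Of 4 markers of immature thymocytes, 1 rose and 1 fell. The part of these cells in the levels of Tcf7 and Il7r was not tested.

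With the mean of the CD3 genes, or that of the mature B-cell genes, as a covariate, none of the 8 genes passed in FMD+VC against CTRL mice. Klf2 was then at -0.20 with CD3 and -0.76 with the B-cell mean, and Dapl1 was above 0 with each. Both covariates differ strongly between the groups, so the treatment and the covariate cannot be told apart in these fits.

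Across the 24 mice the 8 genes formed a chain from Dapl1 to Il7r. The Pearson correlations of Dapl1, Ms4a4b, Lef1 and Klf2 with each other ran from 0.92 to 0.97 (6 pairs), and from 0.83 to 0.93 after the group means were removed. Those of the same 4 genes with Tcf7 or Il7r ran from -0.12 to 0.17 (8 pairs), and from -0.005 to 0.38 after the group means were removed, with Lef1 and Tcf7 at 0.38. Bcl11b stood between, at 0.82 with Satb1, 0.70 with Tcf7 and 0.60 with Dapl1. All points come from the same 24 libraries, which share cell content and group, and no test was made.

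**Figure D5:**
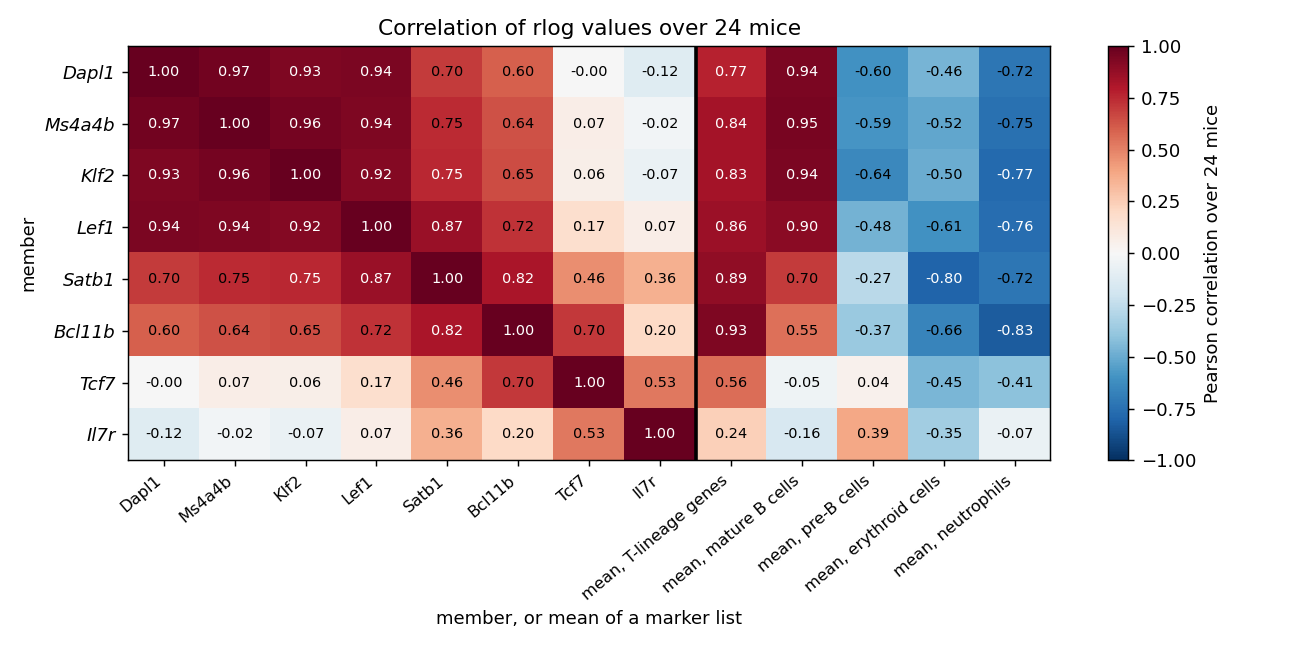
Pearson correlation over 24 mice of the rlog of the 8 naive T-cell genes with each other and with the mean rlog of 5 marker lists. Dapl1, Ms4a4b, Klf2 and Lef1 were at 0.92 to 0.97 with each other and at 0.90 to 0.95 with the mature B-cell mean, and Bcl11b was at 0.93 with the T-lineage mean.

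The marker means separated the members in the same way. Dapl1, Ms4a4b and Klf2 correlated at 0.94, 0.95 and 0.94 with the mature B-cell mean, and at 0.77, 0.84 and 0.83 with the T-lineage mean. The T-lineage list mixes genes that rose, such as the CD3 genes, with genes that did not, so its mean is not the CD3 level. Relative to the CD3 mean, Ms4a4b ran from 0.34 to 1.26 over the mice, Klf2 from 1.48 to 2.89 and Dapl1 from -5.07 to -2.47. Bcl11b correlated at 0.93 with the T-lineage mean and at 0.55 with the B-cell mean. Tcf7 and Il7r were at -0.05 and -0.16 with the B-cell mean. Satb1 had the most negative correlation of the 8 with the erythroid mean, at -0.80.

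Over the 24 mice, the 10 genes most like the mean of the 8 members, each first scaled to unit variance, were Ipcef1 (Pearson 0.97), Limd2 (0.96), Slc12a7 (0.95), Cd247 (0.95), Sh2d1a (0.95), Znrf2 (0.94), Gimap3 (0.94), Gimap1os (0.94), Ephb6 (0.94) and Skap1 (0.94). Of these, 7 were also among the 10 most like it after group means were removed. Cd247 and Skap1, a CD3 chain and a T-cell adaptor, were also on the T-lineage list. Taken singly, Dapl1 was most like Tdrp (0.98) and S1pr1 (0.97), Ms4a4b most like Ms4a6b and Cd2 (both 0.99), and Klf2 most like Zbtb4 (0.99) and Zfp36 (0.98).

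The other members had different nearest genes. Tcf7 was most like Gata3 (0.94, and 0.95 within groups) and Kcnab2 (0.89), Bcl11b most like Cd27 (0.96), and Il7r most like Pik3r5 (0.80) and Cry1 (0.78). Lef1 was most like Als2cl (0.96) and RP24-176P19.6 (0.96), and Satb1 most like Plcxd2 (0.96) and Ctps2 (0.94). The highest correlation of Il7r, 0.80, was the lowest such maximum among the 8.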

How the data were processed

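Spleen RNA of 24 mice was sequenced from a single end after ribosomal RNA depletion. According to the processing notes and methods, the authors aligned reads to GRCm38 with HISAT2 2.1.0, counted genes with HTSeq 0.6.1 and applied DESeq2. The annotation is named there as GRCh38 although the symbols are those of mouse. The deposited values are log2 values (rlog), so depth is unknown and no counting interval could be given. The 16557 genes whose mean reached 3.32, which is log2 of a count of 10, were tested with limma 3.58.1 in R 4.3.3 (1 coefficient per group, eBayes with trend, 20 residual degrees of freedom, two-sided). The procedure was tested on simulated data in which genes varied independently and with the same spread in all groups. The spleen data differ in both respects, so that test does not show how the procedure performs here. Mice were grouped by the treatment in their labels.

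The members, gene lists and tests were chosen with earlier results of these data known. Named are all 8 members, up to 4 genes of a pathway list by adjusted p with those needed to say what did not pass, up to 2 markers per cell type, and the genes most like the members. Some genes of the lists are counted but not reported here by name. Alternatives were no minimum or a minimum of log2 of 50, quantile normalization, only the groups compared, library weights, marker means as covariates and leaving out each mouse. Leaving out CTRL mice 25 and 32 was chosen after seeing the data. Gene positions are those of GENCODE for GRCm38, and promoters those of RefSeq.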

Additional observations from a re-analysis of the deposited data

Results flagged for a closer look

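In 32 groups of 6 mice (8 genes in 4 groups), 2 held a mouse far from the other 5 by Dixon's criterion, and chance alone marks about 1 in 20 groups. Il7r was at 9.84 in CTRL mouse 32, while the next lowest CTRL mouse was at 10.87. Klf2 was at 10.90 in FMD mouse 9, while the next highest FMD mouse was at 10.14.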

How the results depend on the processing

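Dapl1, Ms4a4b, Lef1 and Klf2 passed in FMD+VC against CTRL and against FMD mice under every alternative run except the CD3 and mature B-cell covariates, with which 0 of the 8 passed in either comparison. The higher minimum removed Dapl1 from the test. Satb1 passed under 9 of 21 and 11 of 20 alternatives. With the CD3 covariate, Satb1 turned to -0.26 and Klf2 to -0.20 against CTRL, and to -0.070 and -0.22 against FMD mice. With the B-cell covariate, Ms4a4b turned to -0.15, Lef1 to -0.41, Satb1 to -0.32 and Klf2 to -0.76 against CTRL mice, Satb1 to -0.048 and Klf2 to -0.49 against FMD mice, and Dapl1 to -0.033 and Ms4a4b to -0.25 in VC against CTRL mice. In VC against CTRL mice, 1 gene passed with no minimum, with the higher minimum or with the erythroid covariate, and 0 with only both groups, library weights, the CD3 or B-cell covariate, or without CTRL mice 25 and 32. With library weights, 6 of the 8 were higher in FMD+VC than in VC mice, 1 (Il7r) was lower than in CTRL and in FMD mice, Bcl11b passed as higher than in CTRL (0.68, adjusted p = 0.0205) and in FMD mice (0.72, adjusted p = 0.0244), and 2 passed for the interaction (Dapl1 and Ms4a4b). With only both groups compared, Bcl11b also passed against FMD mice (0.82, adjusted p = 0.0392). These weights were 0.27 to 0.44 for VC mice 17, 18 and 41. The causes were not tested. Estimates that had not passed changed sign 94 times, and Bcl11b, Il7r and Tcf7 were among them. Leaving out 1 mouse at a time gave 4 to 5 higher genes in FMD+VC against CTRL mice, 4 to 5 against FMD mice and 0 to 4 in VC against CTRL mice. No paired analysis was possible because mouse numbers are not shared between groups.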
